A study of Mus musculus with 10 samples.

Results

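The SLAM family is a group of immunoglobulin-like receptors on blood cells, and 7 of its genes were followed here by their symbols in the deposited table: Slamf1, which encodes the sorting antigen CD150, Cd48, Cd84, Cd244, Ly9, Slamf6 and Slamf7. All 7 were among the 23240 genes of the table. The cells were mouse bone-marrow progenitors in 5 groups of 2 RNA-seq libraries each. Every group carried the Tg(vav-Cre) transgene, whose recombinase is driven by the vav promoter in blood cells, so the controls express Cre as well. The Runx1-deleted groups had floxed Runx1 alleles on both chromosomes (labelled Runx1Δ/Δ) and the wild-type groups had intact ones (Runx1wt/wt). The sort took lin- sca- kit+ progenitors that lacked CD41 and CD105. XMP were CD16/32+ CD150+ and came from Runx1-deleted marrow alone. Granulocyte-macrophage progenitors (GMP) were CD16/32+ CD150- and megakaryocyte-erythroid progenitors (MEP) were CD16/32- CD150+, and both were sorted from Runx1-deleted and from wild-type marrow.

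SLAM receptors signal through contacts between cells: most bind a copy of themselves on the neighbouring cell, whereas CD48, which is anchored by a lipid, is bound by CD244. Inside the cell, most of the receptors recruit small adaptors of the SAP family, which bring in the kinase Fyn or compete with phosphatases. In mouse marrow, CD150 and CD48 are standard antigens for telling stem cells from more restricted progenitors, and CD150 also parts progenitors of the platelet and red cell line from those of granulocytes and macrophages. RUNX1 is a DNA-binding transcription factor of blood cells that both activates and represses genes.

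Because Slamf1 encodes an antigen of the sort, its level is a description wherever the groups were sorted on opposite sides of CD150 (XMP against GMP, and GMP against MEP). It could be tested between genotypes within a gate, and between XMP and MEP, which were both sorted as CD150+. The other 6 genes were not used in the sort.

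The 7 genes lie together on chromosome 1, in the order Cd244, Ly9, Slamf7, Cd48, Slamf1, Cd84 and Slamf6 in RefSeq GRCm38.p6, with 1 other gene annotated as protein-coding, Tma7-ps, between Cd48 and Slamf1. Promoters of 6 of the 7 genes were found in the RefSeq table. The 250 bases before the start of Slamf1, Cd48 and Cd84 are shown because these 3 genes had the largest log2 differences of the family between genotypes in GMP, and because RUNX1 binds DNA directly. Capitals mark matches, on either strand, to TGTGGT (a core of the RUNX motif) or GATAA (a core of the GATA motif).
Slamf1, chr1:171766882-171767131, plus strand: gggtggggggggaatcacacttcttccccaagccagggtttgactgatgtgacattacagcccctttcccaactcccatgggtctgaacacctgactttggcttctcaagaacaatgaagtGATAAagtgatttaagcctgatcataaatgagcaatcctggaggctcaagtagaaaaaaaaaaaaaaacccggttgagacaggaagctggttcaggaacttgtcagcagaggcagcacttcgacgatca
Cd48, chr1:171681742-171681991, plus strand: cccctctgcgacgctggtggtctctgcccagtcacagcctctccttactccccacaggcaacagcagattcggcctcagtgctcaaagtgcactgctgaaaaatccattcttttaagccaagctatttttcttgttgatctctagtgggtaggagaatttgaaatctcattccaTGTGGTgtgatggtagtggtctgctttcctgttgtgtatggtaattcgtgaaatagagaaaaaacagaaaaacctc
Cd84, chr1:171839447-171839696, plus strand: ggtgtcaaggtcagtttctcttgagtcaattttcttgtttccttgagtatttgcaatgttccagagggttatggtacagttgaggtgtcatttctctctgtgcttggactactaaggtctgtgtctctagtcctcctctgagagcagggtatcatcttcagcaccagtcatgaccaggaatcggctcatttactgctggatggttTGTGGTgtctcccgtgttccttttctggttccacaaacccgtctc
TGTGGT matched once in Cd48, starting 76 bases before the start, and once in Cd84, 45 bases before it. GATAA matched once in Slamf1, 129 bases before its start. CGGAAG, a core of the ETS motif, matched in none of the 6 promoters, and Cd244, Slamf6 and Slamf7 held none of the 3 motifs. Of 32851 RefSeq promoters of the same length, 14% held TGTGGT, 22.6% held GATAA and 13.6% held CGGAAG. The 3 motifs share no matched base in these promoters. A match is a description of the letters; binding was not measured.

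Levels are given in RPKM, a read count scaled to the gene's length and the library's depth, as the authors deposited them. The reads behind the values ranged from 20.8 to 54.9 M per library. Differences are on the log2(RPKM + 1) scale ± SE, where changes of scarce transcripts come out too small, and a gene was called at an adjusted p under 0.05 from limma with Benjamini-Hochberg adjustment over 10905 genes, those that reached 1 RPKM in 2 or more libraries. Whether the 2 libraries of a group came from separate animals is not stated, so each p-value reflects spread that may be technical. Runx1 itself had 63 and 72.3 RPKM in Runx1-deleted GMP, against 28.5 and 26.8 RPKM in wild-type GMP, but the RPKM of a whole gene does not check the loss of an exon. The gates carried their markers. Among 7 granulocyte and monocyte genes led by Mpo, the summed level was 7.66e+03 and 8.02e+03 RPKM in Runx1-deleted GMP and 1.18e+04 and 1.16e+04 RPKM in wild-type GMP. It was at most 51.9 RPKM in any MEP library, and 182 and 152 RPKM in XMP. Among 7 megakaryocyte genes it was 1.45e+03 and 1.19e+03 RPKM in XMP, 636 and 522 RPKM in Runx1-deleted MEP and 854 and 768 RPKM in wild-type MEP. A list of 6 T cell genes summed to between 1.55 and 3.23 RPKM in all 10 libraries. All Runx1-deleted GMP libraries were sequenced in lane 5 and the wild-type GMP libraries in lanes 3 and 2, so lane and genotype cannot be told apart in GMP.

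**Figure D1:**
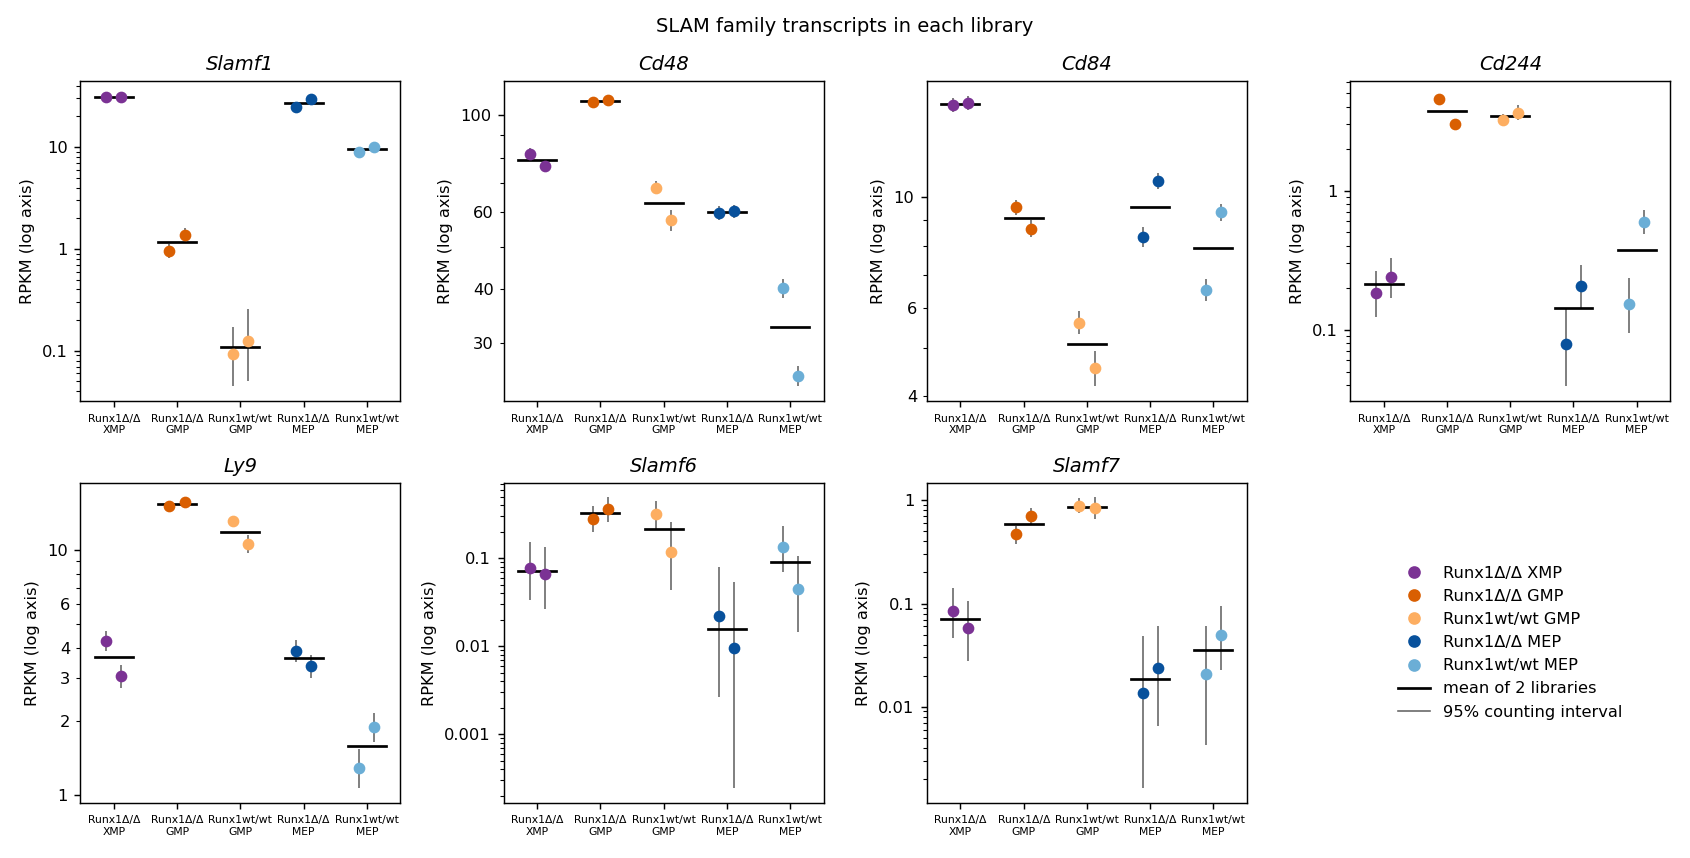
RPKM (log axis) of the 7 genes in each of the 10 libraries, by group; points are libraries, black lines are means of 2 libraries and grey bars are 95% intervals that cover counting error only. Slamf1 spans 0.0934 to 30.9 RPKM, whereas Cd48 stays between 25.2 and 108 RPKM.

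Cd48 was the most abundant family transcript in every group and Slamf1 the most variable. Cd48 made up 61.1% of the summed family RPKM in XMP, 78.1% in Runx1-deleted GMP, 74.5% in wild-type GMP, 59.7% in Runx1-deleted MEP and 61.8% in wild-type MEP (means of 2 libraries). Slamf1 made up 23.9% in XMP, 0.847% in Runx1-deleted GMP, 0.132% in wild-type GMP, 27.1% in Runx1-deleted MEP and 18.5% in wild-type MEP. The summed level of the 7 genes was 129 ± 4.23 RPKM in XMP (SD, n = 2 for this and the next values). It was 138 ± 0.145 RPKM in Runx1-deleted GMP, against 84.4 ± 10.1 RPKM in wild-type GMP. It was 101 ± 5.49 RPKM in Runx1-deleted MEP, against 52.2 ± 7.01 RPKM in wild-type MEP. Both wild-type groups thus lay below all Runx1-deleted groups in summed level, and Cd48 set most of that sum. Slamf6 and Slamf7 did not reach 1 RPKM in any library, and in wild-type GMP the mean of Slamf1 lay below both of theirs.

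**Figure D2:**
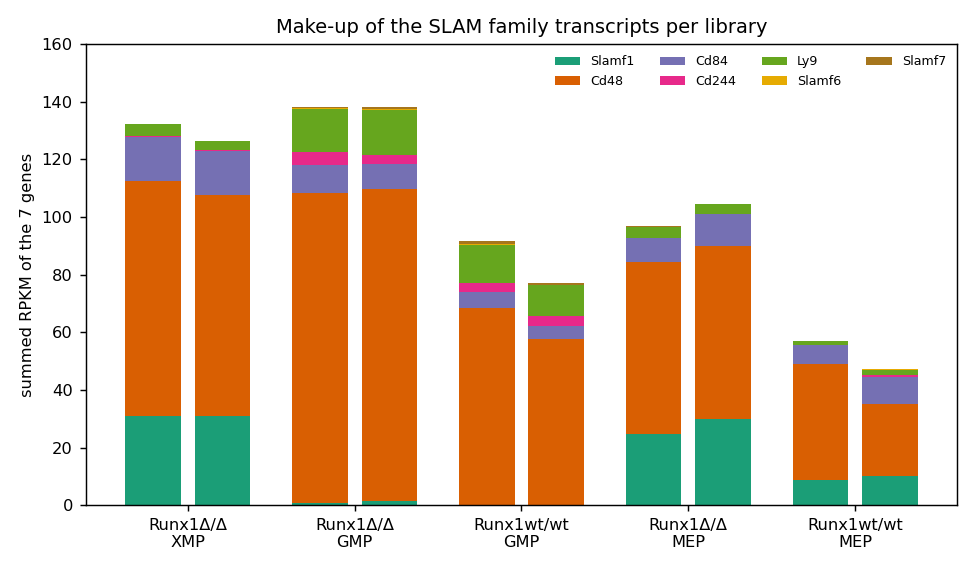
Stacked RPKM of the 7 genes in each library (2 bars per group). Cd48 is the largest block in all 10 bars, and the Slamf1 block is visible in XMP and MEP but nearly absent in GMP.

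Slamf1, whose product CD150 binds itself on other cells, was higher with Runx1 deleted in both gates. In GMP, sorted as CD150- in both genotypes, it had 0.962 and 1.38 RPKM in Runx1-deleted libraries, against 0.0934 and 0.125 RPKM in wild-type libraries. The groups did not overlap, and the wild-type values rest on 10 and 7 reads, with 95% counting intervals of 0.0448 to 0.172 and 0.0502 to 0.257 RPKM. The ratio of the means was 10.7, and the difference was 0.96 ± 0.19 (adjusted p = 0.0114, limma). In MEP, sorted as CD150+ in both genotypes, Slamf1 had 24.7 and 29.9 RPKM in Runx1-deleted libraries, against 8.93 and 10.1 RPKM in wild-type libraries. Here too the groups did not overlap, with a ratio of means of 2.87 and a difference of 1.43 ± 0.19 (adjusted p = 0.000797, limma). In bulk samples, fewer cells of a type and less RNA per cell cannot be told apart. XMP, which the sort parts from Runx1-deleted GMP by CD150 alone, had 30.9 and 30.8 RPKM of Slamf1. The part of such cells in the value of Runx1-deleted GMP was not tested.

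The call for Slamf1 in GMP was lost when any of the 4 GMP libraries was left out, with adjusted p between 0.0535 and 0.181, whereas the call in MEP held in all 19 alternatives. Lanes 4 and 5 alone hold only replicate 2 of wild-type MEP, and there the difference in MEP was 1.35. Of 7 megakaryocyte genes, 3 were called higher in Runx1-deleted GMP, where 3.15% of all genes tested were. The list summed to 114 and 123 RPKM in Runx1-deleted GMP, against 46.3 and 39.7 RPKM in wild-type GMP, with none of the 7 at 0. The part of megakaryocyte transcripts in the Slamf1 result was not tested. In MEP, 1 of the 7 was called higher, where 3.97% of all genes were. Their sum was 636 and 522 RPKM in Runx1-deleted MEP, below the 854 and 768 RPKM of wild-type MEP.

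The difference between the Slamf1 effects in the gates, GMP minus MEP, was -0.46 (95% interval -1.04 to 0.11, adjusted p = 0.692, limma). With a pseudocount of 0.1 in place of 1 it was 1.08 (adjusted p = 0.236); the wild-type GMP level lies far under 1 RPKM. Neither was called, and the direction of the difference depends on the pseudocount. For the other 4 tested members the difference was not called either: in all, 0 of 5, where 1.74% of all genes tested were called (0.954% higher and 0.789% lower) and 1096 genes had an unadjusted p under 0.05.

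Cd48 encodes the lipid-anchored ligand of CD244 and CD2. In MEP it had 59.7 and 60.2 RPKM in Runx1-deleted libraries, against 40.1 and 25.2 RPKM in wild-type libraries. The genotypes did not overlap, the wild-type pair was far apart, and the difference of 0.89 ± 0.21 was called (adjusted p = 0.0248, limma). In GMP it had 107 and 108 RPKM in Runx1-deleted libraries, against 68.3 and 57.4 RPKM in wild-type libraries. Again the genotypes did not overlap, with a ratio of means of 1.72, beside 1.84 in MEP, but the difference of 0.78 ± 0.21 missed the threshold (95% interval 0.31 to 1.24, adjusted p = 0.0596, limma). It was called in 7 of 18 alternatives (adjusted p 0.00254 to 0.445 over all of them), among them with the trend of each library on gene length removed, where it was 1.02. In the authors' deposited table, Baggerley's test gave Cd48 an FDR-corrected p of 1.3e-07 between Runx1-deleted and wild-type GMP and 0.00289 between Runx1-deleted and wild-type MEP. For Slamf1 the authors' deposited table has 1 in GMP and 0.00111 in MEP. The call for Cd48 in MEP was lost in 4 of 19 alternatives (adjusted p 0.00109 to 0.149 over all of them), including without either Runx1-deleted MEP library. In lanes 4 and 5 alone, where the only wild-type MEP library is replicate 2 with 25.2 RPKM, the difference in MEP was 1.22.

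Ly9 encodes a self-binding receptor known from lymphocytes. In MEP it had 3.88 and 3.37 RPKM in Runx1-deleted libraries, against 1.29 and 1.9 RPKM in wild-type libraries, and the difference of 0.84 ± 0.21 was called (adjusted p = 0.0315, limma). The ratio of means was 2.27. In GMP it had 15.1 and 15.7 RPKM in Runx1-deleted libraries, against 13.1 and 10.6 RPKM in wild-type libraries. These did not overlap either, but the difference of 0.36 ± 0.21 was not called (95% interval -0.10 to 0.82, adjusted p = 0.322). The call in MEP was lost in 8 of 19 alternatives, among them lanes 4 and 5 alone (0.67), which hold only replicate 2 of wild-type MEP. In the authors' deposited table Ly9 has an FDR-corrected p of 1 for this comparison.

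Cd84, which encodes another self-binding receptor found on platelets and mast cells among others, had 9.56 and 8.64 RPKM in Runx1-deleted GMP, against 5.61 and 4.54 RPKM in wild-type GMP. The groups were apart, but the difference of 0.74 ± 0.21 was not called (95% interval 0.27 to 1.20, adjusted p = 0.0724, limma). In MEP it had 8.33 and 10.8 RPKM in Runx1-deleted libraries, against 6.52 and 9.34 RPKM in wild-type libraries, which overlap (difference 0.25, 95% interval -0.21 to 0.71, adjusted p = 0.512). Cd244, the receptor for CD48, had 4.52 and 3 RPKM in Runx1-deleted GMP, against 3.23 and 3.64 RPKM in wild-type GMP. Those ranges overlap, and the difference was 0.09 (95% interval -0.36 to 0.53, adjusted p = 0.821). In MEP, Cd244 was low in both genotypes, with 0.0784 and 0.207 RPKM in Runx1-deleted libraries and 0.154 and 0.598 RPKM in wild-type libraries.

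In GMP, 1 of the 5 tested members was called between genotypes (Slamf1, higher), where 5.22% of all genes tested were called, 3.15% higher and 2.07% lower. In MEP, 3 of the 5 were called (Slamf1, Cd48 and Ly9, all higher), where 8.00% of all genes were called, 3.97% higher and 4.03% lower. The median log2 difference over all genes tested was 0.05 in GMP and 0.03 in MEP. Slamf6 and Slamf7 did not pass the filter on low values, and Cd244 passed it only through the GMP libraries, in which it is high. Of 6 mast cell and basophil genes listed, 5 were tested, and 3 of them (Prss34, Mcpt8 and Fcer1a) fell in both gates. Prss34 and Fcer1a passed the filter on low values only through wild-type libraries, where they are high, so their falls are a description. Cpa3 was not called in either gate. It averaged 220 ± 10.8 RPKM in Runx1-deleted GMP, above the 115 ± 28.2 RPKM of wild-type GMP (SD, n = 2). In MEP it averaged 11.5 RPKM in Runx1-deleted and 11 RPKM in wild-type libraries. The list summed to 257 and 232 RPKM in Runx1-deleted GMP and 606 and 568 RPKM in wild-type GMP. In MEP the sums overlapped, with 7.83 and 16.7 RPKM in Runx1-deleted MEP and 19.8 and 16.4 RPKM in wild-type MEP. Mcpt1 was at 0 in both libraries of XMP, Runx1-deleted GMP and wild-type MEP. The part of these transcripts in the values of Cd84, Cd48 and Ly9 was not tested.

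**Figure D3:**
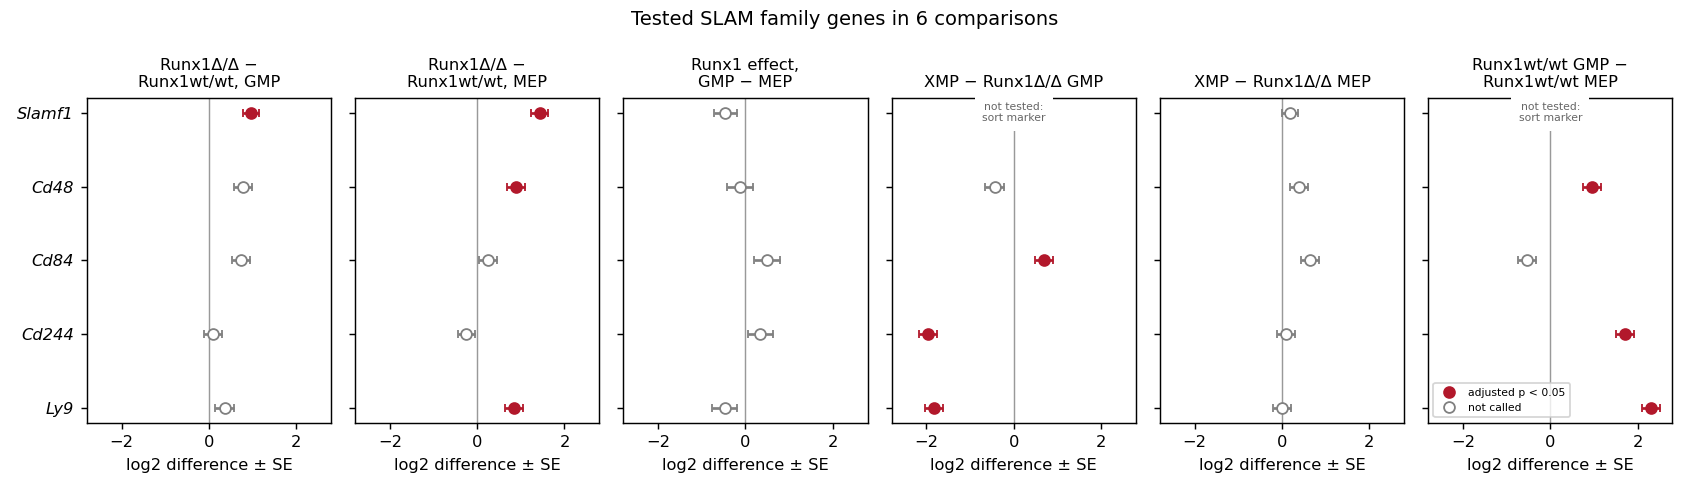
log2 difference ± SE on the log2(RPKM + 1) scale for the 5 tested genes in 6 comparisons; filled red points have an adjusted p under 0.05. Between genotypes Slamf1 is filled in both gates and Cd48 and Ly9 in MEP alone, while the difference between the gates has no filled point.

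XMP carry CD16/32, as GMP do, and CD150, as MEP do. By construction of the sort, Slamf1 was high in XMP, with 30.9 and 30.8 RPKM, against 0.962 and 1.38 RPKM in Runx1-deleted GMP (ratio of means 26.4, a description). Against Runx1-deleted MEP, with 24.7 and 29.9 RPKM, the ratio was 1.13 and the difference 0.18 ± 0.19 was not called (95% interval -0.23 to 0.59, adjusted p = 0.694, limma). The 3 Runx1-deleted groups were set side by side for the members that the sort did not use.

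Ly9 and Cd244 were far lower in XMP than in Runx1-deleted GMP, and Cd84 was higher. Ly9 had 4.27 and 3.05 RPKM in XMP, against 15.1 and 15.7 RPKM in Runx1-deleted GMP, a difference of -1.83 ± 0.21 (adjusted p = 6.73e-05, limma). Cd244 had 0.184 and 0.238 RPKM in XMP (29 and 39 reads), against 4.52 and 3 RPKM in Runx1-deleted GMP. It fell by 1.96 on the log2(RPKM + 1) scale (adjusted p = 3.11e-05), and in RPKM the mean was 17.8-fold lower. Both calls held in all 19 alternatives. Cd244, however, passed the filter on low values only through the GMP libraries, where it is high, so its call is a description. Cd84 had 15.3 and 15.5 RPKM in XMP, against 9.56 and 8.64 RPKM in Runx1-deleted GMP, and the difference of 0.70 was called (adjusted p = 0.0371), though it was lost in 5 alternatives, among them without any 1 of the 4 libraries compared. Cd48 had 81.5 and 76.7 RPKM in XMP, below the 107 and 108 RPKM of Runx1-deleted GMP, with a difference of -0.44 that was not called (95% interval -0.91 to 0.02, adjusted p = 0.196) but was in lanes 4 and 5 alone (adjusted p = 0.0270).

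Of Cd48, Cd84 and Ly9, which reached 1 RPKM in all 10 libraries, 2 were thus called between XMP and Runx1-deleted GMP, where 19.7% of all genes were called, 9.75% higher and 9.90% lower. Cd244 passed the filter on low values only through the GMP libraries and is left out of this count. In the authors' deposited table the FDR-corrected p for this contrast is 0.00751 for Ly9, 0.226 for Cd244 and 0.665 for Cd84. In the same contrast all 7 granulocyte and monocyte genes fell and all 7 megakaryocyte genes rose. Of 5 NK cell genes, which mark another cell type with CD244, 4 were tested and 3 fell (Nkg7, Klrk1 and Ncr1). Klrk1 and Ncr1, like Cd244, passed the filter on low values only through GMP libraries, so their falls are a description. The list summed to 28.9 and 41.9 RPKM in XMP and 121 and 92.4 RPKM in Runx1-deleted GMP, with none at 0. Nkg7 set most of these sums, with means of 34.7 RPKM in XMP and 102 RPKM in Runx1-deleted GMP. It averaged 293 RPKM in wild-type GMP and 150 RPKM in wild-type MEP, where Ncr1 averaged 0.733 and 0.12 RPKM, so the sums do not measure NK cells. The part of these transcripts in the Cd244 and Ly9 results was not tested. Without the filter on low values, Slamf6 (0.0782 and 0.0657 RPKM in XMP, 0.283 and 0.364 RPKM in Runx1-deleted GMP) and Slamf7 (0.0841 and 0.0577 RPKM in XMP, 0.467 and 0.709 RPKM in Runx1-deleted GMP) were also lower in XMP. Their differences were -0.30 and -0.56, with adjusted p of 0.0431 for Slamf6 and 0.00132 for Slamf7 over 19336 genes.

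Against Runx1-deleted MEP, none of the 5 tested members was called in XMP (limma), where 7.74% of all genes were called, 5.14% higher and 2.60% lower, and 2163 had an unadjusted p under 0.05. The largest difference was that of Cd84, 15.3 and 15.5 RPKM in XMP against 8.33 and 10.8 RPKM in Runx1-deleted MEP, which do not overlap (0.64, 95% interval 0.18 to 1.11, adjusted p = 0.0969, limma). It was called in lanes 4 and 5 alone (adjusted p = 0.0300). Cd48 had 81.5 and 76.7 RPKM in XMP, against 59.7 and 60.2 RPKM in Runx1-deleted MEP (0.39, 95% interval -0.07 to 0.85, adjusted p = 0.347). Ly9 had 4.27 and 3.05 RPKM in XMP, against 3.88 and 3.37 RPKM in Runx1-deleted MEP, which overlap (0.00, 95% interval -0.46 to 0.46). Cd244 was low in both, with an interval of -0.36 to 0.53. Slamf1 as a percent of Cd48, a ratio taken within each library, was 39.1 ± 1.64% in XMP, 45.5 ± 5.89% in Runx1-deleted MEP and 31.1 ± 12.4% in wild-type MEP (SD, n = 2 each).

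Between the wild-type gates, GMP had more Cd48, Cd244 and Ly9 than MEP. Ly9 had 13.1 and 10.6 RPKM in wild-type GMP, against 1.29 and 1.9 RPKM in wild-type MEP (2.31 ± 0.21, adjusted p = 9.85e-06, limma). Cd244 had 3.23 and 3.64 RPKM in wild-type GMP, against 0.154 and 0.598 RPKM in wild-type MEP (1.71, adjusted p = 7.99e-05). Both groups stood clear of each other for these genes. Cd48 was higher in wild-type GMP by 0.95 (adjusted p = 0.00632; leaving out wild-type GMP replicate 1 gave 0.0593), and Cd84 was lower by a margin that was not called (-0.54, adjusted p = 0.0970, and 0.0165 with the length trend removed). Of Cd48, Cd84 and Ly9 2 were called, where 21.6% of all genes were, 11.7% higher and 9.83% lower; Cd244, admitted by the filter through GMP alone, is not counted. The authors' deposited table gives an FDR-corrected p of 0.00666 for Cd48, 0.00469 for Ly9 and 0.5 for Cd244 between the wild-type gates. Slamf1, by the sort, had 0.0934 and 0.125 RPKM in wild-type GMP and 8.93 and 10.1 RPKM in wild-type MEP. Ordered by mean level, Slamf1 thus ran from XMP and Runx1-deleted MEP, which do not differ by the test, to wild-type MEP, Runx1-deleted GMP and wild-type GMP; wild-type MEP was not tested against Runx1-deleted GMP.

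The SAP-family adaptors were scarce. Sh2d1a, which encodes SAP, was at 0 to 0.45 RPKM, and Sh2d1b1, which encodes EAT-2, averaged 1.63 ± 0.337 RPKM in Runx1-deleted GMP, 2.64 ± 0.811 RPKM in wild-type GMP and 0.131 ± 0.00376 RPKM in XMP (SD, n = 2). A list of 25 adaptor and signalling genes had 24 in the table and 20 tested. Of these, 2 rose with Runx1 deleted in GMP, where 3.15% of all genes were called higher, and 1 in MEP, where 3.97% were. None fell, and the count in MEP is near that of all genes. Prkcq, which encodes the kinase PKC-theta recruited downstream of Slamf1 in T cells, averaged 7.08 ± 0.351 RPKM in Runx1-deleted GMP and 2.49 ± 0.431 RPKM in wild-type GMP (1.22 ± 0.17, adjusted p = 0.00156, limma). In MEP it averaged 34 ± 0.0138 RPKM in Runx1-deleted libraries and 13.6 ± 0.735 RPKM in wild-type libraries (1.26 ± 0.17, adjusted p = 0.000971). Lat, which encodes an adaptor of T cells, mast cells and platelets, averaged 27 ± 2.04 RPKM in Runx1-deleted GMP and 9.89 ± 0.245 RPKM in wild-type GMP (1.36, adjusted p = 0.000747). The list's median difference was 0.19 in GMP, beside 0.05 for all genes, and 0.06 in MEP, beside 0.03.

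Between XMP and Runx1-deleted GMP, 4 of the 20 tested adaptor and signalling genes were higher and 3 lower, beside 9.75% and 9.90% of all genes. Prkcq (2.90, adjusted p = 4.64e-07, limma) and Lat (2.55, adjusted p = 1.08e-06) were higher in XMP. Sh2d1b1 (-1.21, adjusted p = 0.000313) was among the 3 lower, but the filter admitted it through GMP alone, where it is high. Between XMP and Runx1-deleted MEP, 5 were higher and none lower, beside 5.14% and 2.60% of all genes. In that contrast 6 of 7 granulocyte and monocyte genes and 4 of 7 megakaryocyte genes were also higher, and 5 of 6 erythroid genes were lower. The erythroid list summed to 351 and 238 RPKM in XMP and 1.19e+03 and 1e+03 RPKM in Runx1-deleted MEP, and the granulocyte and monocyte list to 182 and 152 RPKM in XMP and 40.5 and 40.1 RPKM in Runx1-deleted MEP. None of these markers was at 0, and their part in the adaptor values was not tested. Plcg2, a phospholipase, averaged 62.3 ± 4.57 RPKM in XMP and 25.6 ± 3.35 RPKM in Runx1-deleted MEP (1.26, adjusted p = 0.00336), and Fyn, the kinase that SAP recruits, 28.7 ± 1.92 RPKM in XMP and 12.1 ± 1.52 RPKM in Runx1-deleted MEP (1.18, adjusted p = 0.00438). Lat (0.82, adjusted p = 0.0131) and Prkcq (0.79, adjusted p = 0.0171) were also higher in XMP. Slamf8, Slamf9 and Cd2, other relatives and partners, did not pass the filter on low values.

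Of the 24 protein-coding genes nearest to the cluster, 12 on each side, 17 could be tested between genotypes. In GMP none of them was called, where 5.22% of all genes tested were, with differences from -0.88 to 0.33 and a median of -0.10. In MEP 1 was called, where 8.00% of all genes were. With so few neighbours, both counts are near those of all genes. The gene called in MEP was F11r, which encodes the junctional adhesion molecule JAM-A. It averaged 7.15 ± 0.976 RPKM in Runx1-deleted MEP and 3.84 ± 0.473 RPKM in wild-type MEP (0.75, adjusted p = 0.0375, limma). A wider list of 32 genes of the region had 24 tested, of which none was called in GMP. In MEP, 2 were higher (Ppox and F11r) and 1 was lower (Fcer1g), beside 3.97% and 4.03% of all genes.

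**Figure D4:**
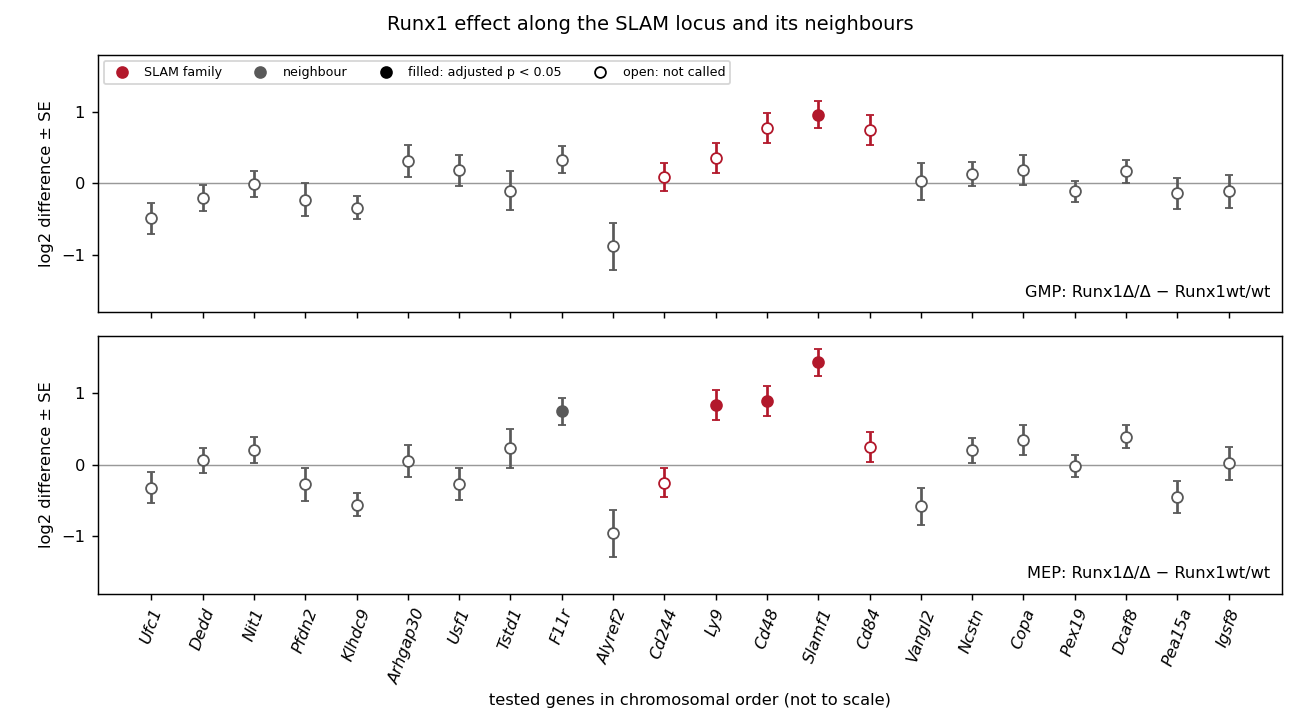
log2 difference ± SE between Runx1-deleted and wild-type cells in GMP (top) and MEP (bottom) for the tested SLAM family genes (red) and tested neighbours (grey) in chromosomal order, not to scale; filled points have an adjusted p under 0.05. Slamf1 is the highest point in both panels, at 0.96 in GMP and 1.43 in MEP, and the only filled neighbour is F11r in MEP.

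The genes whose log2 levels followed each member most closely over the 10 libraries, among 7788 tested genes with a mean of at least 5 RPKM, were picked by Pearson correlation as a description. The libraries share groups and depth, so these values carry no p. For Slamf1 the sort on CD150 sets much of the profile, so genes that differ between the CD150+ and CD150- gates can follow it closely. For Slamf1 they were Adcy6 and Cd55 (each r = 0.993) and 1190007F08Rik (r = 0.991). Adcy6, an adenylate cyclase, averaged 68.6 RPKM in XMP, 5.17 RPKM in Runx1-deleted GMP, 2.74 RPKM in wild-type GMP, 60.6 RPKM in Runx1-deleted MEP and 26 RPKM in wild-type MEP. Cd48 was followed less closely, with Pde2a (r = 0.942), Myo7a (r = 0.936) and Irak4 (r = 0.928). Cd84 was followed by Rasa3 (r = 0.979), Prkce and Fyb (each r = 0.977). Cd244 was followed by B4galt6 (r = 0.991), Pcyox1 (r = 0.989) and St8sia4 (r = 0.988), and Ly9 by Daglb (r = 0.989), Slpi (r = 0.988) and Tifab (r = 0.986). Cd244, with group means from 0.143 to 3.76 RPKM, lay under the limit of 5 RPKM and could not be picked. None of the other tested members was among the 3 closest genes of another member. The highest correlation between 2 tested members was that of Cd244 and Ly9 (r = 0.90).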

How the data were processed

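RNA-seq of 10 libraries was analysed from the authors' deposited table of RPKM values for 23240 genes. Per the file headers it also holds p-values and FDR-corrected p-values of Baggerley's test between groups. Per the labels' protocols, peqGOLD TriFast was used to extract total RNA, and library kits were TruSeq V2 LT or NEBNext Ultra, unassigned to libraries. Reads were placed on mm9, per the submitters' processing notes; aligner and counter: not given in the sources used here.

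Computed here: log2(RPKM + 1) of 10905 genes (1 RPKM or more in 2 or more libraries) entered limma 3.58.1 under R 4.3.3 (eBayes with trend) on all 10 libraries, 1 mean per group, 5 residual degrees of freedom, Benjamini-Hochberg adjustment. Totals and gene lengths were worked back from RPKM steps (10906 of 10907 genes whole within 0.0001 read). On simulated data for the GMP comparison, 72 of 100 genes changed 2-fold and 99 of 100 changed 4-fold were called, with 5 false calls. The changed genes were drawn from the more abundant genes alone, with independent normal noise, so recovery at low levels was not tested. Intervals of differences use limma's moderated standard errors; those on levels are exact Poisson and cover counting error only. Named genes were all 7 members, up to 4 called genes per list and the 3 closest genes per tested member; 1 gene that met the rule is not reported here. Members, lists and tests were chosen with earlier results of these data known. Promoters are from RefSeq GRCm38.p6, which differs from mm9, so no gene coordinates of the table are given.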

Additional observations from a re-analysis of the deposited data

How the results depend on the processing

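Over 28 pairs of a member and a comparison, 518 alternative values were computed: 458 kept direction and side of the threshold, 24 passed it newly, 22 lost it and 14 changed sign, none of the latter a called result. In GMP the number of members called between genotypes was 1. It was 2 with quantile normalization, with the length trend removed, with a replicate block and with the crossed replicate block (libraries 25 to 29 against 30 to 34, chosen after seeing the data), 3 with only the compared groups fitted, and 0 to 3 with single libraries left out. In MEP it was 3, and 1 without the filter or with only the compared groups fitted, and 1 to 3 with single libraries left out. Between XMP and Runx1-deleted MEP it was 0, and 1 with quantile normalization or in lanes 4 and 5 alone, 2 with the length trend removed (Cd48 and Cd84), and 0 to 1 with single libraries left out.

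Signs changed only for differences that were not called. In GMP, Cd244 was -0.11 with quantile normalization and -0.07 with the length trend removed, and -0.15 to 0.32 with single libraries left out. In MEP, Cd84 was -0.02 with the length trend removed. For the difference between gates, Cd48 was 0.02 with quantile normalization and -0.44 to 0.21 with single libraries left out, and Slamf1 was 1.08 with a pseudocount of 0.1. For XMP minus Runx1-deleted MEP, Cd244 was -0.03 and Ly9 -0.13 with quantile normalization, and Ly9 was -0.00 with a pseudocount of 0.1, -0.01 with the length trend removed and -0.19 to 0.19 with single libraries left out. The causes were not tested.

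Deviations of same-numbered libraries correlated between -0.47 and 0.78 over pairs of groups, so the replicate numbers do not pair the libraries. By library number (25 to 29 against 30 to 34), XMP, Runx1-deleted GMP and both MEP groups correlated at 0.30 to 0.78, and wild-type GMP at -0.15 to 0.06 with the others. With the replicate block, Cd48 in GMP was called (0.78, adjusted p = 0.0448, limma), and no other member's call changed. With the crossed replicate block, by library number, Cd48 in GMP was called too (0.78, adjusted p = 0.0344, limma). Lanes 4 and 5 alone hold no wild-type GMP library, so 3 comparisons could not be run there. They hold only replicate 2 of wild-type MEP, so they cannot separate lane from the choice of that library. Leaving out 1 library leaves 1 in its group, which is then assumed to vary like the other groups. Depth limits Slamf6 and Slamf7, Slamf1 in wild-type GMP and Cd244 in MEP and XMP, which rest on few reads.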
